A study of Mus musculus with 28 samples.

Results

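Acetylation of histone H3 at lysine 27 (H3K27Ac) was compared in differentiating IDG-SW3 cells, a mouse bone cell line, between day 3 and day 35. The regions called in 1 library a day were taken as members: every called region on chromosomes 1 to 19, which came to 65776 regions at day 3 and 65669 at day 35. These 131445 regions are part of 905390 on those chromosomes in the 26 lists used here from the 28 samples of the series. IDG-SW3 cells were expanded at 33 °C with interferon gamma. They were then moved to 37 °C in osteogenic medium with ascorbic acid and β-glycerol phosphate, without interferon gamma. Both H3K27Ac libraries are labelled osteocytic cells of this line, differ in the labelled differentiation day, and were made with the same antibody lot. Every culture in the comparison therefore carries the transgenes of the line: GFP driven by the Dmp1 promoter, and a temperature-sensitive T antigen under the interferon-inducible H-2Kb promoter. Reads from those 2 promoters can also count at Dmp1 and H2-K1. The 8 other histone marks of the series, each also 1 library a day, and the vitamin D receptor (VDR) and RXR sites of day 35 were set beside the H3K27Ac regions. There is no replicate library of H3K27Ac at either day, so no difference between days was tested. Every interval given is a 95% Wilson interval that covers counting error only, and the spread between cultures is unknown.

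H3K27Ac is laid down mainly by the acetyltransferases p300 and CBP on nucleosomes beside active promoters and enhancers, and it is widely used to tell active enhancers from those that carry only H3K4me1. Osteoblasts make and mineralize the collagen matrix of bone, and some of them become osteocytes as the matrix closes around them. Runx2 and Sp7 are the transcription factors that define the osteoblast lineage, and Dmp1, Mepe, Phex and Sost are used as markers of successive osteocyte stages. Interferon gamma induces IRF1 and, through CIITA, the class II antigen presentation genes.

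The sequences that carry the pattern described further on are in 2 sets, both from the mm9 (NCBIM37) build, written 5′ to 3′ and chosen after the values were seen. The first set is from the 80 bases that surround the interferon-stimulated response element word (ISRE, written as TTTC, any 2 bases and TTTC, on either strand, in capitals) upstream of genes of the interferon response list. The 4 genes shown had the largest loss of H3K27Ac coverage among the genes of that list from which such a stretch was taken. Each held the word within 250 bases before the gene start. Coverage here is the share in percent of a gene, taken with 5 kb flanks, that lay in H3K27Ac regions. It was 90.1% at day 3 and 15.7% at day 35 for Gbp7, 86.0% and 28.0% for Igtp, 63.5% and 12% for Ifit1, and 57.7% and 13.0% for Gbp3. All 4 encode interferon-induced proteins, of which Gbp3, Gbp7 and Igtp are GTPases. The sequences below are on the strand of the gene, which was the plus strand in each case.
Gbp7, chr3:142193212-142193291: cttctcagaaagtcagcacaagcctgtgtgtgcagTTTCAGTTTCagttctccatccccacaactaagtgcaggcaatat
Igtp, chr11:58012978-58013057: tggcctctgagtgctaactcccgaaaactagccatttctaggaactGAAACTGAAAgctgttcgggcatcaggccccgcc
Ifit1, chr19:34715259-34715338: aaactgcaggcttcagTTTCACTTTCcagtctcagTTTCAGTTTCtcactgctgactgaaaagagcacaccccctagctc
Gbp3, chr3:142222934-142223013: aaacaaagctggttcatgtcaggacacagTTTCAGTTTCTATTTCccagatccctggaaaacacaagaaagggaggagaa

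The same word also occurred in H3K27Ac regions away from gene starts that were called at day 3 and overlapped no region of day 35. Among such regions with H4K5Ac at day 3 and none at day 35, 3 were nearest to a gene of the interferon, antigen presentation or cytokine lists and held the word in their central 500 bases. They are shown as 100 bases of the plus strand.
Gbp2, chr3:142296892-142296991: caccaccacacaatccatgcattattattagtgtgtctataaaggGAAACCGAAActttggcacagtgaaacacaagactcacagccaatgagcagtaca
Il15, chr8:84725878-84725977: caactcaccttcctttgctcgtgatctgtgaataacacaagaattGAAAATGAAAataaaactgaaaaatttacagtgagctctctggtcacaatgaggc
Tnfaip3, chr10:18788236-18788335: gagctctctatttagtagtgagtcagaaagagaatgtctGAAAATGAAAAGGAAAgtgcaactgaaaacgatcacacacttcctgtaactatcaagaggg
The Gbp2 stretch lies in an intron 13.5 kb from the nearest gene start, and the region that holds it went from 72.6% to 0% covered by H4K5Ac. The Il15 and Tnfaip3 stretches are intergenic, 201.2 kb and 52.9 kb from the named gene, whose products are a cytokine and an inhibitor of NF-kB signalling. Their H4K5Ac coverage went from 94.1% and 100.0% to 0% in each.

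The second set is from regions called at day 35 that overlapped none of day 3 and had H4K5Ac at day 35 only. It shows the word of AP-1 (TGANTCA on either strand, in capitals), the dimer of Fos and Jun proteins. Of 67 such regions with the word that lay nearest to a gene of the bone, matrix protease, Wnt, BMP or growth factor lists, 4 of the highest-scoring, near different genes, are shown, again as 100 bases of the plus strand.
Pdgfa, chr5:139524551-139524650: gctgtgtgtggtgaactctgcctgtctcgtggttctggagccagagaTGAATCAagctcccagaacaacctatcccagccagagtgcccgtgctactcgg
Irx5, chr8:94933363-94933462: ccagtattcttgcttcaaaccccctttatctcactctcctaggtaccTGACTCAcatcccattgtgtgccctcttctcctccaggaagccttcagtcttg
Mef2c, chr13:83340943-83341042: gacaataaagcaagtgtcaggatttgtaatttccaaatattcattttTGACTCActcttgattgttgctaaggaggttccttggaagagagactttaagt
Bmp7, chr2:172615253-172615352: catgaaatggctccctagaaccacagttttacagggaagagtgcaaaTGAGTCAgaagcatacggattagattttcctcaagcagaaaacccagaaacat
In these 4 regions H4K5Ac, H3K4me1 and H3K9Ac covered no base at day 3. At day 35 H4K5Ac covered 97.1% to 100.0% of each region and H3K9Ac 51.4% to 78.4%. The distance to the named gene start ran from 51.4 kb for Pdgfa to 301.9 kb for Mef2c, so the pairing with the gene is by nearness alone. Pdgfa and Bmp7 encode secreted growth factors, Irx5 a homeobox transcription factor, and Mef2c a transcription factor that acts on the Sost enhancer in osteocytes. A match to a word is a description of the letters and does not show that a factor binds there.

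Across the autosomes, H3K27Ac regions came to 222.4 Mb (9.0%) in the day-3 list and 265.9 Mb (10.8%) in the day-35 list, 1.20 times as much, while the number of regions was nearly the same. The difference between days was mostly in wide regions. The median width was 1836 bp at day 3 and 1984 bp at day 35, the means were 3382 and 4050 bp, and the widest regions 177536 and 298152 bp. Regions of at least 10 kb numbered 4007 at day 3, covering 71.3 Mb, and 5352 at day 35, covering 111.7 Mb. For comparison, the covered length of H4K5Ac differed by a ratio of 1.13, of H3K9Ac by 1.05 and of H3K4me1 by 0.998. Depth is not stated, and the authors' score has an unstated scale. The mean spacing of its 20 lowest distinct values was 0.153 at day 3 and 0.126 at day 35, a ratio of 1.21. What part the spacing has in the covered length was not tested.

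Of the 307.6 Mb covered at either day, 180.8 Mb (58.8%) were covered at both. Bases covered at day 35 alone came to 85.1 Mb, 2.04 times the 41.6 Mb covered at day 3 alone. Most of this length, 63.2 Mb, lay beside or between shared regions, that is, in regions that overlapped a day-3 region, and 21.9 Mb (25.8%) lay in regions with no day-3 counterpart. At day 3 the same split was 29.5 Mb and 12.2 Mb (29.2%). A region called at day 35 that shared no base with day 3 is called gained here, and a day-3 region that shared no base with day 35 is called lost. There were 16014 gained regions (24.4% of the day-35 list, 24.1 to 24.7) and 12090 lost regions (18.4% of the day-3 list, 18.1 to 18.7). Both classes were short and of low score: the median width was 935 bp for gained and 758 bp for lost regions, and the median percentile of score within their own list was 21.6 and 17.9. Only 13 gained and 2 lost regions stood in the upper 10% of their list. With the higher-scoring 50% of each list set against the whole other list, 5.70% of day-35 and 2.09% of day-3 regions had no counterpart. The counts depend on list length. The day-35 list was also trimmed to the covered length of day 3 by taking its highest-scoring regions, which left 31540 regions. Of these 5.14% were gained, and 46.6% of the whole day-3 list was lost. The trim removes low-scoring regions, among which most gained regions stood. A lower gained and a higher lost share were thus built into this setting.

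The wider coverage at day 35 did not extend to gene starts. Within 2 kb on each side of the start of the 21418 autosomal protein-coding genes, mean H3K27Ac coverage was 43.5% at day 3 and 41.4% at day 35, with 1742 genes (8.13%) higher and 3599 (16.8%) lower by over 10 percentage points. At the start itself, 55.0% of genes lay in a region at day 3 and 53.3% at day 35. The gap between days was wider 1.5 kb downstream, with 42.2% and 38.3%. From 4 kb downstream the order was the other way, with 20.3% at day 3 and 22.1% at day 35, and at 10 kb the values were 15.6% and 19.3%. Upstream at 10 kb they were 13.1% and 15.0%. H4K5Ac went the other way at the start, with 54.1% and 55.4%, and H3K9Ac gave 54.1% and 54.3%. In the 4 kb window mean H4K5Ac coverage was 45.1% and 45.5%, with 2427 genes higher and 2449 lower by over 10 points. For H3K9Ac it was 40.8% and 40.2%, with 1994 higher and 2579 lower. The lower H3K27Ac coverage of this window was thus not matched by H4K5Ac. H3K4me3, the mark of active promoters, had a lower mean coverage in the same 4 kb window at day 35, 12.6% against 19.1%.

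**Figure D1:**
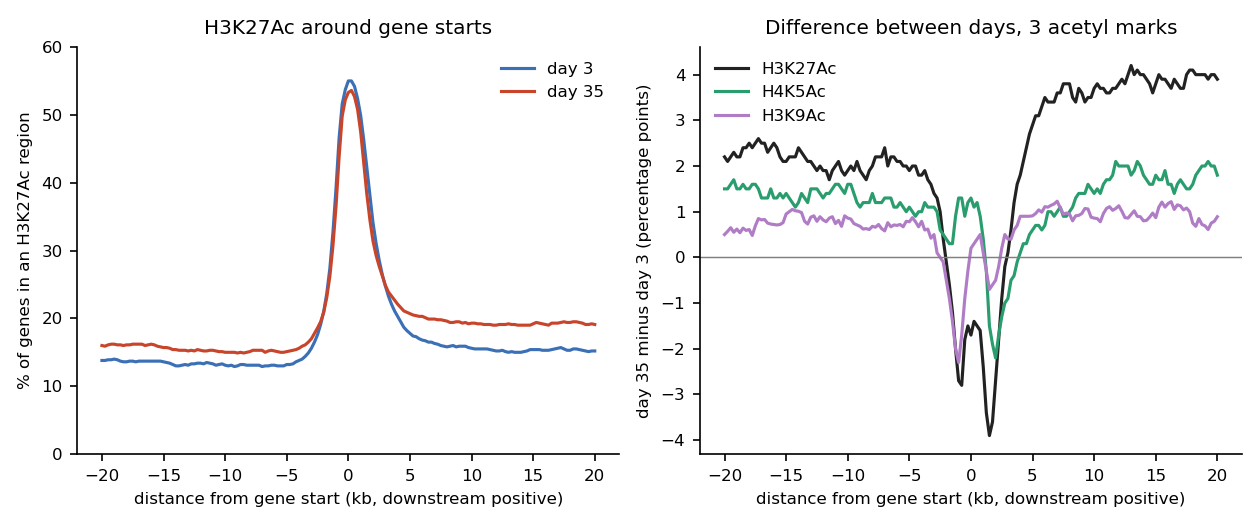
Share of 21418 genes whose position at a given distance from the gene start (kb, downstream positive) lay in a called region, 1 library a day. The left panel gives H3K27Ac at day 3 and day 35, and the right panel the difference in percentage points for H3K27Ac, H4K5Ac and H3K9Ac: the H3K27Ac difference is negative around the start and positive from 4 kb downstream.

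Gained regions were seldom at promoters. Of the gained regions, 1.99% (1.78 to 2.21) had their centre within 1 kb of a start of a protein-coding transcript, against 5.39% (5.0 to 5.81) of lost regions and 13.2% of shared regions of the day-35 list. More gained than lost regions were intronic, 51.9% (51.1 to 52.7) against 44.0% (43.1 to 44.8), and fewer were intergenic, 42.5% against 47.3%. The median distance to the nearest start was 33.9 kb for gained and 29.6 kb for lost regions. It was 22.3 kb for shared regions of the day-35 list and 22 kb for those of day 3.

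Other marks over the gained regions were those of distal elements. H3K4me1, which marks enhancers whether active or not, already overlapped 55.2% (54.4 to 56.0) of gained regions at day 3 and 84.7% at day 35. It was present at both days in 53.8% and at day 35 alone in 30.9%. H3K4me2 overlapped 3.00% at day 3 and 32.4% at day 35, H3K9Ac 2.92% and 22.4%, and H4K5Ac 26.6% and 78.0%. H3K4me3 overlapped 0.0937% and 0.381%. The H4K5Ac libraries, separate from those of H3K27Ac, gave the same order of days in 8506 of the 16014 gained regions (53.1%, 52.3 to 53.9), with H4K5Ac at day 35 only. A further 3979 (24.8%) had H4K5Ac at both days and 3253 (20.3%) at neither, and only 276 (1.72%) had it at day 3 alone.

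Lost regions differed from this in that the other marks stayed more often. H3K4me1 overlapped 84.0% of lost regions at day 3 and still 64.5% at day 35, with 63.3% marked at both days. H4K5Ac overlapped 77.2% and 47.7%. It was present at day 3 only in 4017 of 12090 lost regions (33.2%, 32.4 to 34.1) and at both days in 5322 (44.0%, 43.1 to 44.9). H3K4me2 went the other way from H3K27Ac, with 26.3% of lost regions at day 3 and 33.2% at day 35. Over shared regions of the day-35 list H3K4me2 also overlapped more regions at day 35, 79.4% against 64.5%. H3K4me2 was thus more frequent at day 35 in all 4 classes of region.

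**Figure D2:**
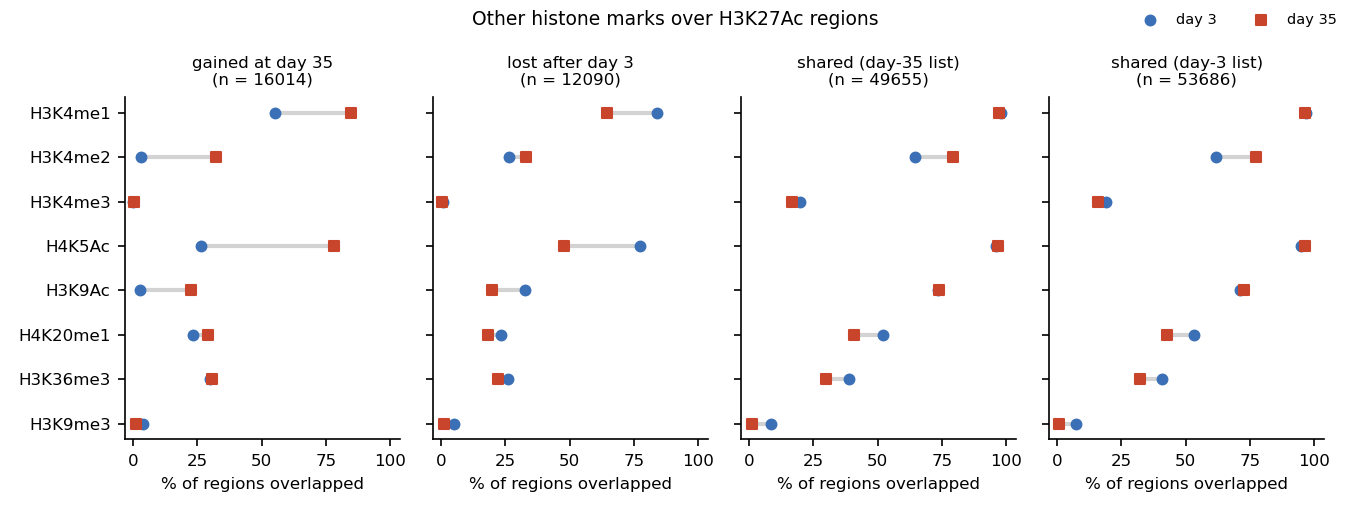
Percent of H3K27Ac regions that the 8 other marks overlapped by at least 1 bp at day 3 (circles) and day 35 (squares), for regions gained, lost and shared. H4K5Ac went from 26.6% to 78.0% over gained regions and from 77.2% to 47.7% over lost regions, while shared regions stayed at 94.8% or above.

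The gained regions of highest score were wide blocks, intergenic or intronic except 1 at Tuba1b whose centre lay in a coding exon. The first, 19.6 kb at chr16:45253143-45272696, lay 38.5 kb from the start of Btla, an inhibitory receptor of lymphocytes. The second, 22.1 kb at chr16:45365321-45387371, was nearest to Cd200, a surface glycoprotein that restrains myeloid cells, on the same chromosome. Both had no H4K5Ac and no H3K9Ac at day 3. At day 35 H4K5Ac covered 100.0% and 95.4% of them. Blocks of 10.0 to 16.1 kb nearest to Odf2l, Sdr42e1, Rps4y2, Fam3c, Prex1 and Tspan11 had the same order in H4K5Ac. It covered 0% to 25.4% of them at day 3 and 94.4% to 100.0% at day 35. Their distance to the gene start ran from 4.26 kb for Tspan11 to 154.9 kb for Fam3c. Blocks at Tuba1b, an alpha-tubulin, and Fggy were fully covered by H4K5Ac at both days. That at Tuba1b also carried H3K4me3 at both, over 27.9% and 21.4% of its length, and H3K4me2, over 97.3% and 97.7%. Its H3K4me1 coverage was 0% and 99.3%, and its H3K9Ac coverage 0% at both days. The lists hold calls and no reads, so a mark that arose and a call missing at day 3 cannot be told apart in such blocks. Among the widest gained regions was 1 of 13.4 kb inside Gli2, a transcription factor of the Hedgehog pathway.

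Of the 100 lost regions of highest score, 25 had H4K5Ac at day 3 only and 74 had it at both days, against 63 and 37 for the 100 gained regions of highest score, with day 35 in place of day 3. The lost region of highest score was the 14.3 kb block at chr1:39956548-39970804 in Map4k4, a kinase of the stress-activated pathways. H3K27Ac coverage of Map4k4 was 56.8% at day 3 and 0% at day 35. In the same gene H4K5Ac coverage was 41.9% and 82.7%, and H3K9Ac 12.4% and 27.8%. The top lost regions nearest to Fam92b (51.8 kb from its start), Hmgb1 and Chic2 (1.02 and 147.5 kb) likewise kept both marks at day 35. H4K5Ac covered 54.3% to 100.0% of their length and H3K9Ac 58.1% to 94.0%. These blocks lack H3K27Ac in the day-35 list alone of the 3 acetyl marks. The lists hold calls and no reads, so a mark that is gone and a call that is missing cannot be told apart here, and the 0% of Map4k4 is a statement about calls. The second, near Gm10800 on chromosome 2, had no H3K4me1 or H4K5Ac at either day. All 3 acetyl marks were lower in the lost regions nearest to Dach1 (chr14:97793186-97804421), Gm10306 and Tnfaip8l3. The same held in the region inside Sema3e, which encodes a secreted axon guidance protein. The distance to the gene start was 770.0 kb for Dach1, 395.6 kb for Gm10306 and 3.41 kb for Tnfaip8l3. The pairing with these genes is by nearness alone. In the Dach1 region H4K5Ac went from 100.0% to 0%, H3K9Ac from 78.4% to 0% and H3K4me1 from 98.9% to 0%.

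Per gene, H3K27Ac coverage of the gene body with 5 kb flanks was higher at day 35 by over 10 percentage points in 3918 of 21418 genes (18.3%) and lower in 1297 (6.06%). The median was 12.2% at day 3 and 12.5% at day 35, the median difference 0 points, and 16203 genes (75.7%) stayed within 10 points. No H3K27Ac was called at either day in 5624 genes (26.3%). The excess of higher over lower genes was 3.02 to 1 here, 1.34 to 1 with lists of equal covered length, and 0.484 to 1 in the 2 kb on each side of the start. The direction over all genes thus differed with the window, and the gene lists below are read against the 18.3% and 6.06%. That background includes the 5624 genes with no H3K27Ac at either day. Its median day-3 coverage of 12.2% was below that of lists such as the osteoblast genes (38.4%). No background of like day-3 coverage was made. The housekeeping list had 3 of 12 genes higher and 2 lower. List counts within 2 kb of the start have another background: 8.13% of all genes were higher and 16.8% lower in that window. Over the gene bodies alone, 3617 of all 21418 genes were higher and 1493 lower. With lists of equal covered length these numbers were 3038 and 2260. List counts in those settings are to be read against them. A stricter call asked for all 3 acetyl marks. H3K27Ac, H4K5Ac and H3K9Ac coverage were all higher by over 10 points in 670 genes (3.13%) and all lower in 218 (1.02%). Where H3K27Ac was higher by over 25 points (1380 genes), H4K5Ac was higher by over 10 points in 834 (60.4%). Where it was lower by over 25 points (233 genes), H4K5Ac was lower in 181 (77.7%). H3K36me3, which marks transcribed gene bodies, was lower by over 10 points in 43.3% of the latter genes and higher in 1.72%. In the former it was higher in 17.5% and lower in 12.4%. The shares of all genes with such H4K5Ac or H3K36me3 differences were not counted, so these percentages have no background. H3K36me3 also overlapped fewer shared regions of the day-35 list at day 35, 30.1% against 38.9% at day 3.

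The genes furthest above their day-3 coverage, among those with all 3 acetyl marks higher, included bone matrix, growth factor and cytokine receptor genes. Ibsp, which encodes bone sialoprotein, a nucleator of mineral in bone matrix, had 6.00% of its window covered at day 3 and 83.7% at day 35. Its H4K5Ac coverage was 24.2% and 95.8%, its H3K36me3 11.7% and 48.5%, and 4 gained regions and no lost region lay nearest to it. Lifr, the receptor for leukaemia inhibitory factor, went from 21.6% to 100.0%. Nkd2, an inhibitor of Wnt signalling through Dishevelled, went from 7.32% to 78.9%, and its H3K36me3 from 8.61% to 81.3%. Vegfa, the main angiogenic growth factor, went from 28.7% to 100.0%, and Gpc1, a heparan sulphate proteoglycan of the cell surface, from 10.8% to 81.7%. Chac1, an enzyme of glutathione breakdown in the ATF4 stress response, went from 13.9% to 84.2%. The others were Capns2, Gm22, F2rl3, Gm17544, Gm9747, Cdk5r1, Cox7a1, D630029K05Rik and Fam198a, each at 72.9% or more at day 35. At D630029K05Rik the rise was not of acetyl marks alone: H3K4me3 went from 0% to 70.9% and H3K9me3 from 0% to 50.4%.

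Among the genes furthest below their day-3 coverage, with all 3 acetyl marks lower, were interferon and histone genes. Gbp4, an interferon-induced GTPase, went from 88.7% to 15.4%, with H4K5Ac from 86.2% to 39.1%. Ifnb1, which encodes interferon beta, went from 74.3% to 2.22%. Igtp, Ifit1, Ifi27l1 and the shorter of the 2 annotated Ciita genes were also among the 15, as were Hist1h2ak, Hist1h2bn and Hist1h4k, 3 neighbours in the large histone cluster of chromosome 13 that went from 65.2% to 69.0% at day 3 to 0% at day 35. Gsdmd, which encodes the pore-forming gasdermin D, went from 79.8% to 25.6%, and Edn1, the precursor of endothelin-1, from 66.1% to 17.6%. Gm11172, Tmigd1, Otor and Fam33a complete the 15.

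**Figure D3:**
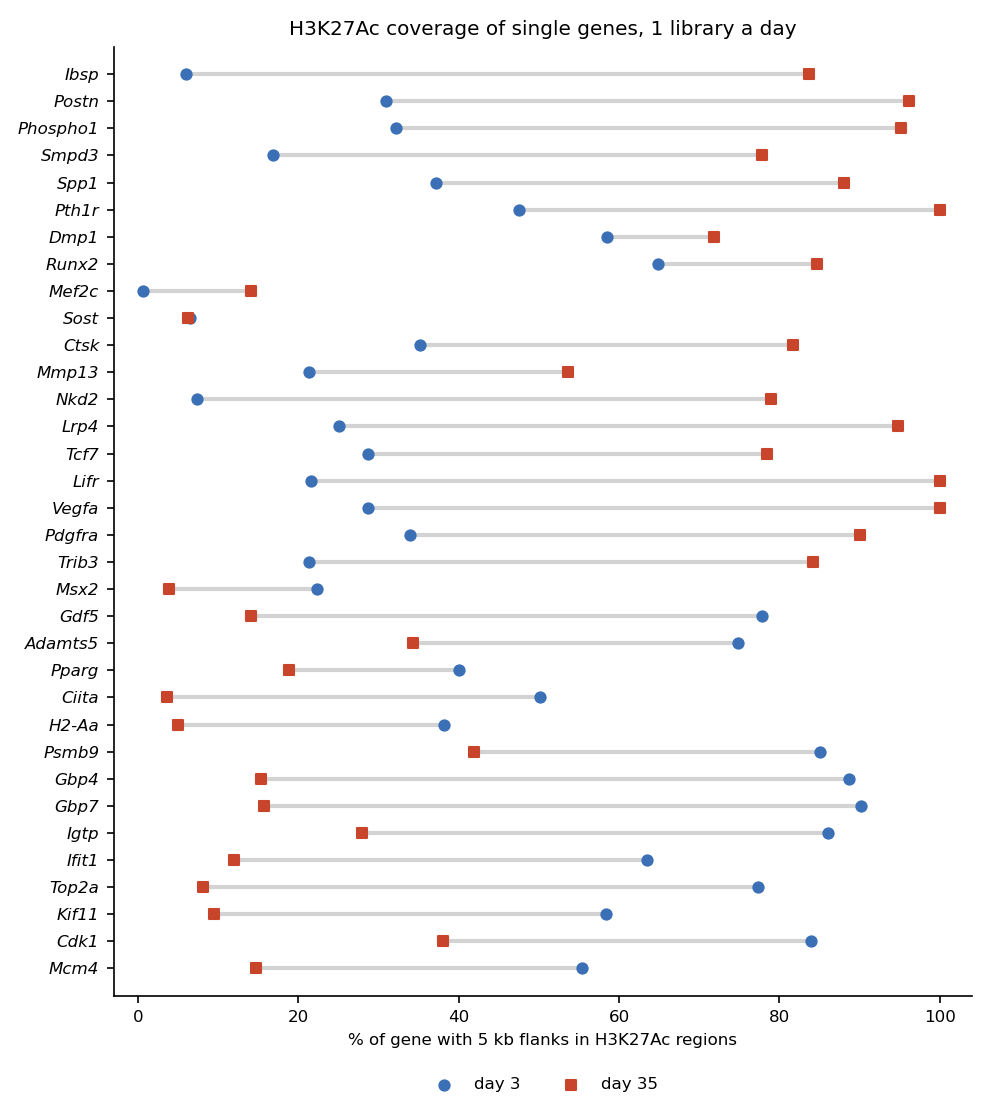
H3K27Ac coverage of 34 genes (percent of the gene body with 5 kb flanks) at day 3 (circles) and day 35 (squares), 1 library a day with no error. Genes of the bone matrix and growth factor lists in the upper rows, except Sost, lie to the right at day 35. The interferon, antigen presentation and cell cycle genes shown in the lower rows lie to the left. The genes are a selection: Irf7, Isg20, Psmb10, Rrm1 and Tk1 of those groups were higher at day 35 and are not shown.

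The check of the label against osteoblast genes found the lineage factors covered at both days. Sp7, Col1a1 and Sparc were 100.0% covered at day 3 and at day 35, and Col1a2 97.4% and 99.3%, which left these genes no room above. Runx2 went from 64.9% to 84.7% over its longest annotated window. Of the 22 osteoblast list genes, 11 (50.0%) were higher and 1 was lower, against 18.3% and 6.06% of all genes. 7 of the 11 were higher in all 3 acetyl marks. Within 2 kb of the start 5 of the 22 were higher and 1 lower. Postn, a matricellular protein of periosteum, went from 30.9% to 96.1%, and the gene of the receptor for parathyroid hormone, Pth1r, went from 47.5% to 100.0%. The lower gene was Msx2, a homeobox factor of early osteoprogenitors, at 22.4% and 3.88%. Bglap and Bglap2, the osteocalcin genes, had 19.1% and 36.9% at day 3 and 29.4% and 39.4% at day 35. As near-identical neighbours their reads may be shared.

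Osteocyte genes were higher more often than not, but not those of the latest stage. Of 14 osteocyte list genes, 10 (71.4%) were higher and none lower, with a median difference of 15.4 points. Within 2 kb of the start 2 were higher and none lower. Cd44, a hyaluronan receptor, went from 52.5% to 96.4%, Gja1, the gap junction protein connexin 43, from 62.5% to 98.0%, Pdpn, which shapes osteocyte processes, from 33.3% to 60.9%, and Capg from 53% to 80.1%. Only Gja1 was higher in all 3 marks by over 10 points. Dmp1 went from 58.5% to 71.8%, where reads of the transgene promoter may add. H3K4me3, H4K20me1, H3K36me3 and H3K9me3 also each covered 45.0% to 46.0% of the Dmp1 window at both days. Coverage at that level was thus not particular to H3K27Ac there. Dmp1 counts among the higher genes of both the osteocyte and the mineralization lists. Sost, the late osteocyte inhibitor of Wnt signalling, stayed at 6.56% and 6.29%, and Fgf23 was at 8.57% and 4.92%. Mef2c went from 0.648% to 14.1%. Its window is large, and 20 of the 22 day-35 regions nearest to it were gained, 14 of them with H4K5Ac at day 35 only.

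The 17 mineralization genes held 10 (58.8%) higher and none lower, and 4 higher and 1 lower within 2 kb of the start. Phospho1, the phosphatase that starts mineral formation in matrix vesicles, went from 32.2% to 95.1%. Smpd3, a sphingomyelinase that acts with it, went from 16.8% to 77.8%, and Ank, a pyrophosphate exporter that restrains mineral, from 18.4% to 73.9%. Spp1, osteopontin, went from 37.2% to 88.0%. Of 23 genes for collagen processing, 12 (52.2%) were higher and none lower in the 5 kb window, but 1 was higher and 2 lower within 2 kb of the start. P4ha1, a prolyl hydroxylase, went from 45.9% to 94.6%, Bmp1, a procollagen protease, from 25.1% to 69.9%, and Serpinh1, the collagen chaperone, from 59.6% to 100.0%. None of these 12 was higher in all 3 marks, and H3K9Ac differed by a median of 0.940 points over the list. Among 24 matrix proteases and inhibitors, 14 (58.3%) were higher (7, with 2 lower, within 2 kb of the start), among them Ctsk from 35.2% to 81.7% and Mmp13 from 21.3% to 53.6%. Adamts5, an aggrecan-cleaving protease, was the 1 lower gene, at 74.8% and 34.3%, and 20 lost regions lay nearest to it. Of 41 collagen genes, 17 (41.5%) were higher and 2 lower, but 5 higher and 8 lower within 2 kb of the start.

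Signalling lists were uneven. In each list given here fewer members were higher within 2 kb of the start, where 8.13% of all genes were higher and 16.8% lower. In the FGF, IGF and PDGF list, 19 of 33 genes (57.6%) were higher and none lower, against 4 and 3 within 2 kb of the start. Pdgfra, a receptor for platelet-derived growth factor, went from 33.9% to 90.0%, Igfbp5, an IGF-binding protein of bone matrix, from 44.5% to 96.6%, and Spry1, an inhibitor of receptor tyrosine kinases, from 19.7% to 70.7%. In the Wnt list, 13 of 38 (34.2%) were higher and 3 lower, and 7 and 7 within 2 kb of the start. Besides Nkd2, the higher genes included Lrp4, a receptor for sclerostin, from 25.1% to 94.8%, and Tcf7, a nuclear effector, from 28.7% to 78.4%. The lower ones were Rspo3 (32.5% and 10.7%), Rspo2 (28.9% and 9.27%) and Wnt10b (94.0% and 80.7%), all secreted activators of the pathway. In the BMP and TGF-beta list, 16 of 41 (39.0%) were higher and 3 lower, and 10 and 7 within 2 kb of the start. Bmp2 had no H3K27Ac at day 3 and 35.6% at day 35, its start was in a region at day 35 only for all 3 acetyl marks, and 12 gained regions lay nearest to it. Tgfb3 went from 30.4% to 97.7%. Gdf5, a joint-forming BMP ligand, went from 77.8% to 14.1% and Id1, a BMP target, from 100.0% to 73.3%. The Notch list had 3 of 19 (15.8%) higher and 2 lower, which is near the share of all genes for the higher side, and 1 higher and 6 lower within 2 kb of the start. Nrarp, a feedback inhibitor of Notch, went from 25.8% to 0%.

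Metabolic and stress lists were higher in more members than all genes in the window with 5 kb flanks. Of 27 hypoxia and glycolysis genes, 17 (63.0%) were higher and none lower. Within 2 kb of the start 8 were higher and 2 lower. Besides Vegfa the higher genes included Ndrg1 from 34.8% to 77.7% and Ldha, lactate dehydrogenase, from 33.0% to 75.4%. Of 20 genes of secretory pathway stress, 9 (45.0%) were higher and none lower (3 and 1 within 2 kb of the start), led by Trib3, a pseudokinase target of ATF4, from 21.3% to 84.2%. Of 19 genes of cholesterol and fatty acid synthesis, 9 (47.4%) were higher and none lower, among them Insig1, a sterol-sensing regulator, from 27.7% to 79.3%. Within 2 kb of the start 1 of these 19 was higher and 3 were lower. The circadian clock list also had 9 of 19 higher (4, with 1 lower, within 2 kb of the start), with Dbp from 49.1% to 94.8%. Among 71 cytosolic ribosomal protein genes, 34 (47.9%) were higher and 1 lower in the 5 kb window, but 4 were higher and 6 lower within 2 kb of the start. Over the gene bodies alone 14 of the 71 were higher and none lower, against 3617 and 1493 of all 21418 genes. Of 34 chromatin enzymes, 13 (38.2%) were higher and 5 lower, but 9 were higher and 9 lower with lists of equal covered length, and 6 and 10 within 2 kb of the start. Kdm5b, an H3K4 demethylase, went from 14.4% to 68.3%, while Ezh2, the methyltransferase of Polycomb complex 2, was at 33.3% and 20.4%.

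**Figure D4:**
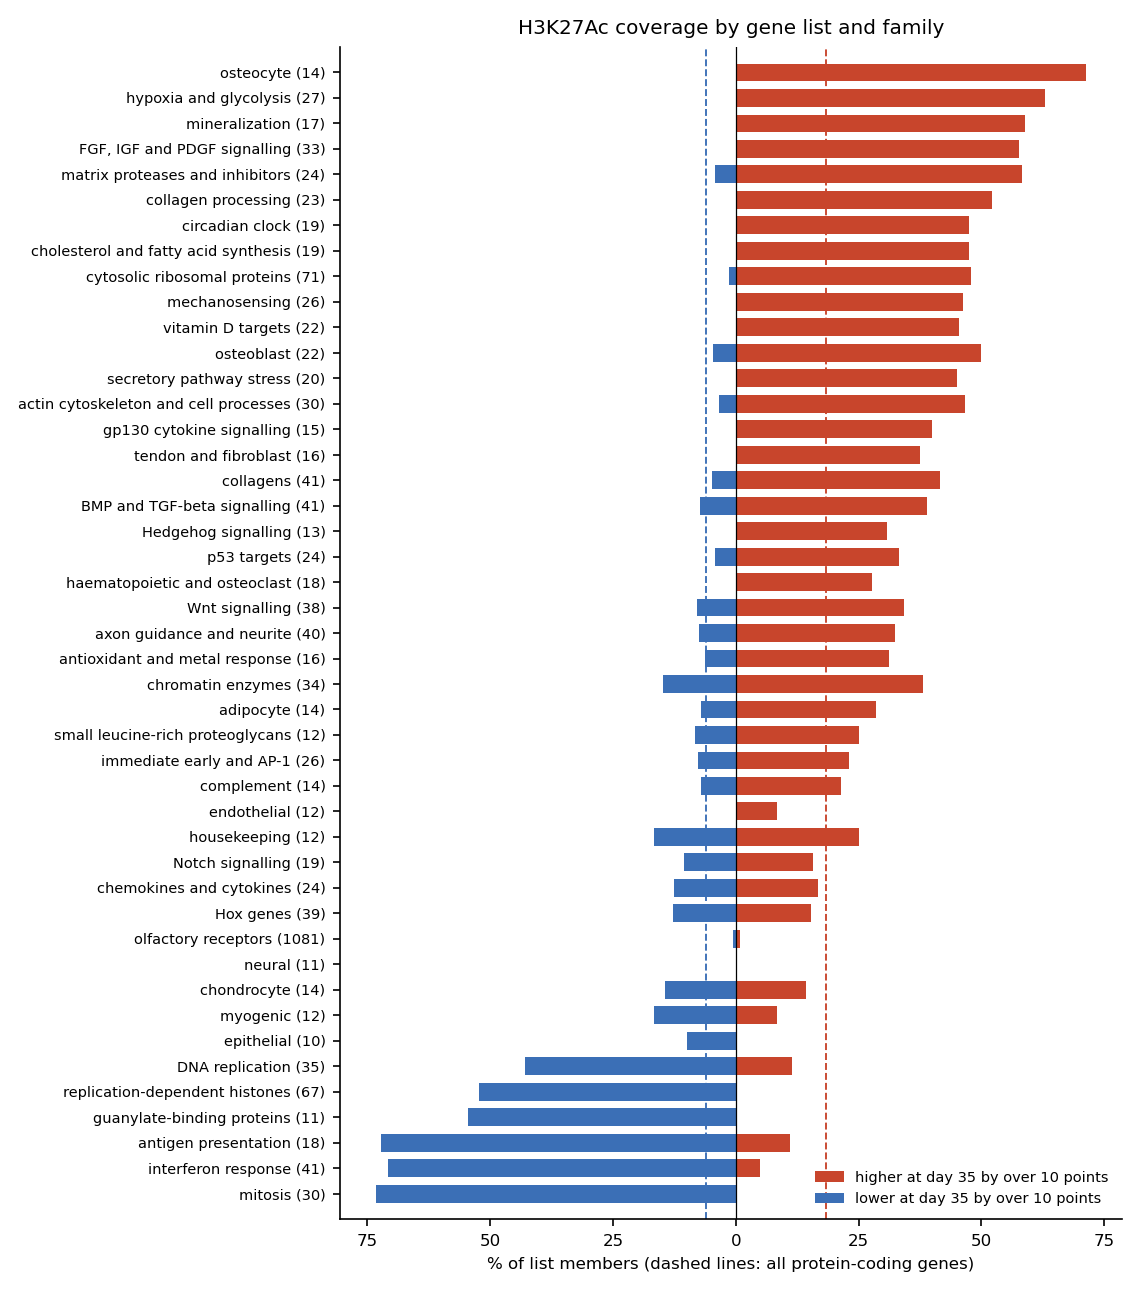
Percent of the members of 39 gene lists and 6 families whose H3K27Ac coverage was higher (right) or lower (left) at day 35 by over 10 points in the window with 5 kb flanks, with the number of members in brackets. Dashed lines mark the 18.3% higher and 6.06% lower of all protein-coding genes. Mitosis, interferon response, antigen presentation and histone genes stand on the lower side.

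Interferon response genes were mostly lower. Of 41 list members measured, 29 (70.7%) were lower and 2 higher, against 6.06% and 18.3% of all genes, and 11 of the 29 were lower in all 3 acetyl marks. The median coverage was 45.3% at day 3 and 18.5% at day 35. Within 2 kb of the start 27 were lower and none higher, and with lists of equal length 31 were lower. Gbp7 went from 90.1% to 15.7% and Igtp, Gbp4 and Ifit1 as given above. Isg20, an exonuclease (26.9% and 54.3%), and Irf7, a regulator of interferon genes (28.2% and 51.5%), were the 2 higher genes. H3K36me3 coverage of the list differed by a median of -17.7 points. The ISRE word lay within 250 bases before the start of 17 of the 41 genes (41.5%, 27.8 to 56.6) and of 709 of all 21418 (3.31%, 3.08 to 3.56). It was found in 13 of the 29 lower members. Over all genes it was found before 5.63% (4.50 to 7.02) of the 1297 lower genes and 2.94% (2.45 to 3.51) of the 3918 higher genes. The list holds known interferon targets, in which the word is common, so its share there is a description. The cultures had left interferon gamma, and that removal, temperature and time in culture cannot be told apart in this design.

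Of 18 antigen presentation genes, 13 (72.2%) were lower and 2 higher. Ciita, the master activator of class II genes, went from 50.1% to 3.67% over its longest annotated window. H2-Eb1 and H2-Aa, class II chains, went from 67.0% to 21.0% and from 38.2% to 4.98%, and their H3K36me3 from 53.5% to 3.25% and from 66.4% to 13.7%. Psmb9, an immunoproteasome subunit, went from 85.0% to 41.9%. Psmb10, another immunoproteasome subunit, was higher, at 53.3% and 100.0%. B2m, the light chain of class I, was at 84.2% and 98.1%. Of 11 guanylate-binding protein genes, 6 were lower. These and the H2 genes are close paralogs, and the placing of reads that fit several copies is not known here.

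Proliferation genes were the other lower group. Of 30 mitosis genes, 22 (73.3%) were lower and none higher. Top2a, the topoisomerase of chromosome segregation, went from 77.3% to 8.18%, with H4K5Ac from 77.3% to 8.62%. Kif11, a spindle motor, went from 58.4% to 9.55%, and Cdk1, the mitotic kinase, from 83.9% to 38.1%. Only 1 of the 22, Cdk1, was lower in all 3 marks by over 10 points: H3K9Ac differed by a median of -3.07 points over the list, while H3K36me3 differed by -36.6. Of 35 DNA replication genes, 15 (42.9%) were lower and 4 (11.4%) higher. Ccne2, a cyclin of S phase entry, went from 83.2% to 42.4% and Mcm4, a helicase subunit, from 55.4% to 14.7%, while Rrm1 and Tk1, of nucleotide synthesis, were at 52.2% and 71.6% at day 3 and 88.5% and 100.0% at day 35. Replication-dependent histone genes, which are transcribed in S phase, were lower in 35 of 67 (52.2%) and higher in none, with 15 lower in all 3 marks. Many are neighbours whose 5 kb windows overlap, so they are not separate observations. Over the gene bodies alone 16 of the 67 were lower, against 1493 of all 21418 genes.

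Genes of other cell types showed mixed values, and in a bulk culture fewer cells of a type and a weaker mark per cell cannot be told apart. Of 18 haematopoietic and osteoclast genes, 5 (27.8%) were higher and none lower. Runx3 went from 31.9% to 77.3%, Fcer1g from 26.6% to 62.6% and Sfpi1, which encodes the myeloid factor PU.1, from 11.8% to 45.5%, with its start in a region at day 35 only. Emr1, Calcr and Tm7sf4 were at 0% at both days, Ptprc at 1.75% and 2.50%, and the sum over the list was 272.1 percentage points at day 3 and 404.5 at day 35. The part of any such cells in these values was not tested. Of 14 adipocyte genes, 4 were higher and Pparg, the adipocyte regulator, was lower, at 40.1% and 18.8%. With lists of equal covered length 2 were higher and 2 lower. Adipoq was at 2.33% and 14.9%, and Retn and Pck1 at 0% at both days. Of 14 chondrocyte genes, 2 were higher and 2 lower, with Col2a1 at 5.86% and 1.28%. Among 12 myogenic genes, Myod1, Actc1, Ckm and Tmem8c were at 0% at both days and Acta1 was the only one higher, at 0% and 10.8%. Myf5 and Myf6, neighbouring genes of myogenic factors, were lower, at 11.8% and 0% and at 23.9% and 8.90%. The sum over the list was 53.4 percentage points at day 3 and 38.5 at day 35. None of 11 neural genes passed 10 points in either direction, and of 12 endothelial genes only Eng, a TGF-beta co-receptor, did, while within 2 kb of the start 3 were lower and none higher. Olfactory receptor genes, as a check of silent genes, had no H3K27Ac at either day in 1030 of 1081.

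Switches at promoters were fewer than changes of coverage. A protein-coding start lay in an H3K27Ac region at both days in 11552 of 21410 genes and at neither in 8791. It did so at day 35 only in 372 (1.74%) and at day 3 only in 695 (3.25%). H4K5Ac switched the same way in 204 of the 372 and 197 of the 695, and was called at both days in 103 and 260. All 3 acetyl marks switched on in 83 genes. Bmp2, Smoc1, a matricellular BMP antagonist, Col13a1, Col15a1 and Col11a2, collagens, and Galnt3, whose product protects FGF23 from cleavage, were among them, named after their values were seen. All 3 switched off in 59 genes, among them Msx2, Nrarp, Hhex, Batf3 and Ifi27l2a, also named after their values were seen.

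In kilobases, the largest differences were in long genes. Cdk14, a cyclin-dependent kinase of the Wnt receptor complex, had 267.2 kb more H3K27Ac at day 35, with coverage from 35.0% to 77.6% and H4K5Ac from 49.5% to 76.6%. Col11a1, a fibrillar collagen of cartilage and bone, had 138.9 kb more, from 18.2% to 87.6%, and Col24a1, a collagen of developing bone, 113.6 kb more, from 53.5% to 95.6%. Ghr, the growth hormone receptor, had 114.6 kb more, from 25.7% to 67.3%, and Adam12 101.8 kb more, from 10.1% to 38.5%, with 14 gained regions nearest to it. Lpp had 118.0 kb more and Cacna2d3 107.7 kb more. The first in rank, Gm20388, with a window of 4445 kb, is an annotation that spans many other genes. The window of Fgfr2 was 3019 kb and likewise spans many other genes, so its 188.8 kb more (13.6% to 19.8%) is not a value of that receptor gene alone. Glis1, a Krüppel-like zinc finger factor, had 76.9 kb less, from 55.6% to 19%. Zfpm2, a GATA cofactor, had 69.0 kb less, from 18.4% to 3.35%, with H4K5Ac from 39.1% to 6.00% and H3K36me3 from 49.1% to 1.39%. Sox5, a chondrocyte factor, Trp63, Sema3a, Dgki, Npas3, Akap6 and Csgalnact1 had between 42.1 and 65.8 kb less. Map4k4, with 76.9 kb less, is the gene in which the other acetyl marks were higher.

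Gained and lost regions gathered near some genes. A gained region lay nearest to 6808 of 21275 genes by start, and a lost region to 6158. At least 10 gained regions were nearest to 151 genes and at least 10 lost regions to 70. The genes that follow were named after their values were seen. Kif26b, a kinesin-like protein, had 30 gained regions out of 56 day-35 regions nearest to it, Auts2 27 of 32, Adamts17 22 of 27, and Plxna2, a semaphorin receptor, 22 of 25. Mef2c had 20 of 22. On the lost side, Cdh18, a cadherin of the nervous system, had 39 of 48 day-3 regions, Lphn2 38 of 87, Cited2, a CBP-binding cofactor, 33 of 89, and Zfpm2 30 of 45. Such counts also follow the length of the neighbourhood, since large intergenic spaces hold more regions.

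Sequence words were counted in the central 500 bases of regions whose centre lay over 1 kb from a gene start, on both strands. Of gained regions with H4K5Ac at day 35 only, 27.3% (26.4 to 28.3) held the AP-1 word, against 16.9% (15.8 to 18.1) of lost regions with H4K5Ac at day 3 only and 21.9% (21.5 to 22.3) of shared regions of day 35. The AP-1 word read backwards, which keeps its base composition, was in 14.4% and 14.5% of the gained and lost regions. The RUNX word TGTGGTT was in 18.0% (17.2 to 18.8) of gained and 14.1% (13.0 to 15.2) of lost regions, and backwards in 7.49% and 7.43%. The E-box CAGCTG was in 28.0% (27 to 28.9) and 20.9% (19.7 to 22.3). The ISRE word went the other way, in 7.44% (6.89 to 8.02) of gained, 15.6% (14.5 to 16.8) of lost and 8.72% of shared regions. Read backwards it was in 7.53% of gained and 12.1% of lost regions. Over all regions of both lists away from starts the AP-1 word was in 22.2%, the RUNX word in 15.7%, the E-box in 25.1% and the ISRE word in 9.10%, and in 500 bases around all protein-coding starts in 9.21%, 7.18%, 26.5% and 5.21%. The MEF2 word TATTTATA was in 4.40% of gained and 4.93% of lost regions, with overlapping intervals, and the TEAD word GGAATG in 30.0% and 27.1%. Mean GC content was 44.6% in gained and 42.6% in lost regions.

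**Figure D5:**
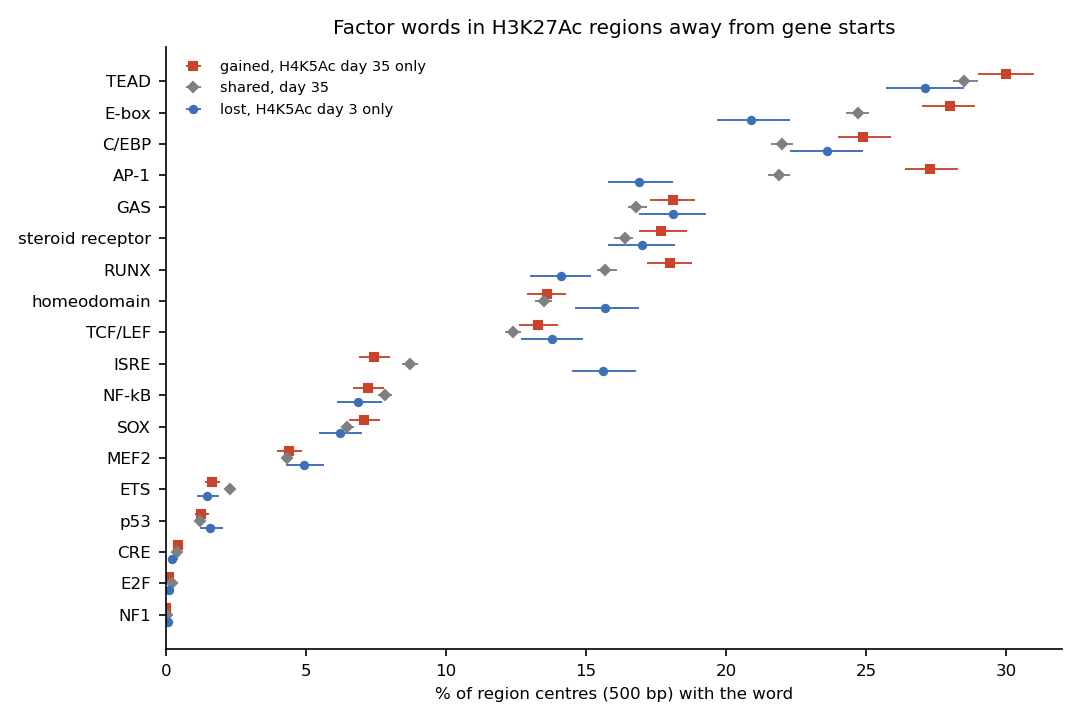
Percent of H3K27Ac region centres (500 bp, over 1 kb from a gene start) that hold each of 18 factor words on either strand, with 95% Wilson intervals for counting error. AP-1, RUNX and E-box words are at higher shares in gained (squares) than in lost regions (circles), and ISRE at a higher share in lost regions (15.6% against 7.44%).

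VDR and RXR sites called in both replicates after hormone at day 35 were set on the regions. VDR is the vitamin D receptor and RXR its dimer partner. Of 6735 RXR sites, 6139 (91.2%) lay in shared regions of the day-35 list, 265 (3.93%) in gained regions and 57 in lost regions. Per Mb covered this was 25.2 sites in shared, 12.1 in gained and 4.69 in lost regions. Of 1202 VDR sites, 992 (82.5%) lay in shared, 60 in gained and 12 in lost regions, or 4.07, 2.73 and 0.987 per Mb. Both factors were mapped at day 35 alone, so the few sites in lost regions say nothing of day 3.

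The ratio of H3K27Ac length between days was above 1 on each autosome, from 1.04 on chromosome 4 to 1.47 on chromosome 1. On chromosome 1 the ratio was also the highest for H4K5Ac (1.41), H3K9Ac (1.24) and H3K4me1 (1.18), and on chromosome 4 it was 0.948, 0.917 and 0.896. Chromosome 17 gave 1.35 and chromosome 16 1.09 for H3K27Ac. Of the genes named above, Igfbp5, Kdm5b, Gpc1, Gm9747, Fcer1g, Gli2, Kif26b, Plxna2, Ptprc, Batf3 and Map4k4 are on chromosome 1, and the part of the ratio of that chromosome in their values was not tested.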

How the data were processed

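The authors deposited 1 list of called regions per library, with a score per region whose scaling is not stated. The submitters' processing notes name Bowtie, HOMER and mm9, with versions, settings and read depth not given in the sources used here. Regions on chromosomes 1 to 19 were joined per list and compared by shared bases. Genes and transcript starts came from GENCODE on NCBIM37, and sequences from that genome. A gene counted as higher or lower when the covered percent of its body with 5 kb flanks differed by over 10 points. Named genes were the 15 largest differences each way with H3K9Ac and H4K5Ac the same way, the 10 largest each way in kb, up to 4 each way per list, those nearest to the 10 highest-scoring and 10 widest gained and lost regions, and Ibsp, Postn, Dmp1, Runx2, Sp7, Col1a1, Mef2c, Sost, Ciita and Top2a. The members and the 39 gene lists (861 entries for 836 genes, of which 5 genes were not found) and 25 families were chosen with earlier results of these data known. Some genes that the rule names are not reported here. Overlap and coverage code was tested on simulated data. Python 3.11.15, numpy 2.4.6, pandas 2.3.3, scipy 1.17.1, pysam 0.24.0 and matplotlib 3.10.9 were used. The alternatives were the higher-scoring 50% of each list, equal covered length, merging within 1 kb, no chromosome 10, a 50% overlap, other gene windows and a 25-point threshold.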

Additional observations from a re-analysis of the deposited data

How the results depend on the processing

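No paired analysis was possible because each day has 1 library, so spread between cultures is unknown and no difference was tested; read depth is not given, which limits every region count. Of 62 recomputed values, 29 were labelled the same and 33 moved. Shares of regions counted as the same within the counting error of the main value, and gene counts within 1.5 times. The length ratio and the share of bases had to be unchanged as printed, so small shifts such as 1.20 to 1.22 count as moved. Merging within 1 kb joined no regions, so its values, all among the 29, could not move. The recomputed values are single shares and counts, which cannot change sign, but 2 orders between them turned. Higher to lower genes went from 3.02 to 1 to 0.484 to 1 within 2 kb of the start. Gained against lost shares went from 24.4% and 18.4% to 5.14% and 46.6% at equal covered length. That second turn was built into the setting, which cut the day-35 list to 31540 regions and left the day-3 list whole. With the higher-scoring 50% of each list, the length ratio was 1.22, the share of bases covered at both days 57.8%, gained 21.5%, lost 16.3%, gained and lost regions at starts 2.95% and 10.5%, and with H3K4me1 at the other day 89.9% and 95.6%. With equal covered length, which sets the length ratio to 1.00, these were 56.2%, 5.14%, 46.6%, 2.59%, 5.84%, 69.7% and 82.4%, and 2260 genes were lower. Without chromosome 10 the share covered at both days was 58.6%. With an overlap of 50% of the shorter region, gained and lost shares were 25.0% and 19.1%. With the higher-scoring 50% of a list against the whole other list, an alternative chosen after seeing the data, they were 5.70% and 2.09%, shares at starts 2.30% and 8.87%, and with H3K4me1 at the other day 68.8% and 84.4%. Genes higher and lower numbered 1742 and 3599 within 2 kb of the start, 1380 and 233 past 25 points, and 670 and 218 with H3K9Ac and H4K5Ac the same way, and 726 were lower with 20 kb flanks. The cause of these differences was not tested, other than the construction of equal lengths.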
